A study of Mus musculus with 4 samples.

Results

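Described here are 10 genes linked to myelin, namely Plekhb1, Ermn, Mobp, Bcas1, Pkp4, Gjc3, Trak2, Mbp, Car2 and Tppp, in cells sorted from mouse bone marrow. They were chosen by their higher values in mice with myeloproliferative neoplasm (MPN) than in a control mouse, out of 19938 genes with a value. All 10 had a value, each from 1 probe set, which is a group of array probes read as one. Because the same arrays chose the genes, their differences are a description and carry no p-value.

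Myelin is the layered membrane that glial cells wrap around axons. Oligodendrocytes make it in the brain and spinal cord, and Schwann cells make it in peripheral nerves, including those that run through marrow. Its compact layers are held together by basic and membrane proteins, and the glial cell feeds the sheath through transport along microtubules and through gap junctions. Several genes of this group are also used outside glia, for example Mbp in immune cells and Car2 in red cell precursors and osteoclasts.

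The study asked how nerves of the marrow niche are affected in MPN, and these arrays compared the cells that carry green fluorescent protein driven by the nestin promoter (Nes-gfp). The 3 MPN arrays came from mice labelled Nes-gfp;Mx1-cre;JAK2-V617F, taken 10 weeks after they received marrow cells with a mutant JAK2 and a Cre driven by the interferon-inducible Mx1 promoter. The 1 control array came from a Nes-gfp mouse 10 weeks after it received control cells, whose genotype the labels do not give. All mice were on the C57BL/6 strain, and the sort kept cells that showed the reporter and lacked CD45 (leukocytes), CD31 (endothelium) and Ter119 (red cells). The labels give no age or sex. Titles name 1 mouse per array, and nothing says how the control mouse would differ from other control mice.

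Values are log2 numbers made by the authors with RMA, a method that subtracts background, brings arrays to one distribution and summarises each probe set. A background limit of 5.21 marks the 95th percentile of the mean values of 1194 odorant and pheromone receptor genes. The median difference, MPN mean minus control, was 0.18 over all genes and 0.25 over the receptor genes. No probe set's level is set against another's, since probes differ in how brightly they bind. Marker genes of the sort did not match it on all arrays. Ptprc, which encodes CD45, measured 10.16, 9.46 and 10.40 in the MPN mice, against 7.07 in the control mouse. Nes was at 4.25 ± 0.32 (SD, n = 3) in the MPN mice, against 4.26 in the control mouse, both under the background limit. Xist, a transcript of female cells chosen after its values were seen, was at 8.97 ± 0.52 (SD, n = 3) in the MPN mice, against 3.30 in the control mouse. In every difference given here, sex or any other trait that sets the control mouse apart cannot be told apart from MPN. The array material is bulk RNA, so fewer cells of a type and less RNA per cell cannot be told apart.

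RefSeq promoter windows on mouse build GRCm38.p6 run from 250 bases before to 50 bases after a transcript start. The search left out the chromosome of Mbp and held no window of Bcas1 or Car2. Windows of the other 7 of the 10 genes were searched. They are shown because the genes were high on the same arrays, and because SOX transcription factors, among them Sox10, are known to act at myelin genes. Capitals mark the letters ACAAAG or ACAATG on either strand, the core read by many SOX factors. On the printed strand a match to the first on the other strand reads CTTTGT. The Mobp window lies at chr9:120149492-120149791 on the plus strand. The Ermn window lies at chr2:58052815-58053114 and the Plekhb1 window, one of a pair given for that gene, at chr7:100656916-100657215, both on the minus strand. The Gjc3 window lies at chr5:137963049-137963348 on the minus strand and is shown as one that holds neither core.
Mobp: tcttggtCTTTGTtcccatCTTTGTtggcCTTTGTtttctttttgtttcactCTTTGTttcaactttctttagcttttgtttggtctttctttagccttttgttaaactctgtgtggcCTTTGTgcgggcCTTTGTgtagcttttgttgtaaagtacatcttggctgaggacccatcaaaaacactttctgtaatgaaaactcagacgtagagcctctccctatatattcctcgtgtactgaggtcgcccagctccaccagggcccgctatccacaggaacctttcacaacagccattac
Ermn: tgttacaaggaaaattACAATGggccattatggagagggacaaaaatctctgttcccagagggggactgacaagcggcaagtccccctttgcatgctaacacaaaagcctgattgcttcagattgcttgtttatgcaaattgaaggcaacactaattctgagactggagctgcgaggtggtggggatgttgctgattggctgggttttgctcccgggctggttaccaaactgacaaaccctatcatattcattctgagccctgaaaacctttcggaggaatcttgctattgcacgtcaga
Plekhb1: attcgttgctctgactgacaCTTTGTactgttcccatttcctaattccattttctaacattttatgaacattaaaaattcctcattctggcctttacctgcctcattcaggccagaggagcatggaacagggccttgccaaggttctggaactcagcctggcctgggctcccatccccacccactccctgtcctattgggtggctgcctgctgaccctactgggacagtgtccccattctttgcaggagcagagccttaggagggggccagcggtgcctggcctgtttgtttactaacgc
Gjc3: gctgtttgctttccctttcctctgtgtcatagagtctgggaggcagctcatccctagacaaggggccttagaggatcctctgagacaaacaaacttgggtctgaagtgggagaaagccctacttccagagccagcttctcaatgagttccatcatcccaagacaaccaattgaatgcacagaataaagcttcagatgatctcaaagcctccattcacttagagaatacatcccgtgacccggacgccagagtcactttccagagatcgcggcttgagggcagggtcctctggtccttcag

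The Mobp window held 6 matches to ACAAAG, all in the part before the start site. Of all 32851 windows, 1 held 6 or more, and that was the window of Mobp. The cut of 6 was taken from the Mobp window itself, so that share is a description. The Ermn window held 1 match to ACAATG, and 1 of the Plekhb1 windows held 1 match to ACAAAG. Thus 3 of the 9 windows searched, none of them of Mbp, held either core, and 28.6% of all windows did. ACAAAG alone was in 18.7% of all windows and ACAATG in 12.6%. The windows of Trak2, Tppp, Gjc3 and Pkp4 held neither core. Further letters searched were CANNTG, the E-box of factors such as Olig2, which reads the same on both strands, the core AGATAA read by many factors of blood cells, and the TATA box letters TATAAA. The E-box CANNTG was present in 1 or more windows of Plekhb1, Pkp4, Gjc3 and Tppp and in 72.3% of all windows. The core AGATAA had 0 matches in the 9 windows searched, and 11.2% of all windows held it. The letters TATAAA also had 0 matches there, and 13.6% of all windows held them. GC content was 43.3% for Mobp and 47.0% for Ermn, but 73.3% for Tppp and 67.7% for Trak2, with a median of 52.7% over all windows. Letters in a window are no evidence that a factor binds there.

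Both structural myelin proteins had higher values in each MPN mouse than in the control mouse. Mobp, the myelin-associated oligodendrocyte basic protein (probe set 10590269), was at 11.32, 10.58 and 10.38 in the MPN mice, against 6.85 in the control mouse. The 3 MPN arrays lay close together and far above the control, with a difference of 3.91 (SE 0.46) or 15.0-fold. Mbp, myelin basic protein, whose locus also makes the golli proteins of immune cells (probe set 10457022), was at 10.88, 10.44 and 10.22 in the MPN mice, against 8.18 in the control mouse. Its difference was 2.34 (SE 0.33), with the control value above the background limit. The files hold 1 probe set for Mbp, so myelin and golli transcripts were not told apart.

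Ermn, ermin, an actin-binding protein of the oligodendrocyte cytoskeleton (probe set 10482795), was at 9.86, 8.03 and 6.99 in the MPN mice, against 4.30 in the control mouse. The control value was under the background limit, and the MPN arrays spread over 2.86 log2 units with mouse 1 highest. Its difference was 3.99 (SE 1.29). Bcas1, which marks oligodendrocytes that are beginning to myelinate (probe set 10490061), was at 10.94, 10.11 and 9.10 in the MPN mice, against 6.14 in the control mouse. The groups did not overlap, and the difference was 3.91 (SE 0.83).

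Plekhb1, a membrane protein with a pleckstrin homology domain known from retinal photoreceptors (probe set 10565910), was at 10.74, 9.98 and 9.18 in the MPN mice, against 4.92 in the control mouse. Its difference of 5.05 (SE 0.71), or 33.1-fold, was the largest of the 10 and ranked 3 of all 19938 genes. The fold depends on where background lies, since the control value was under the limit.

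**Figure D1:**
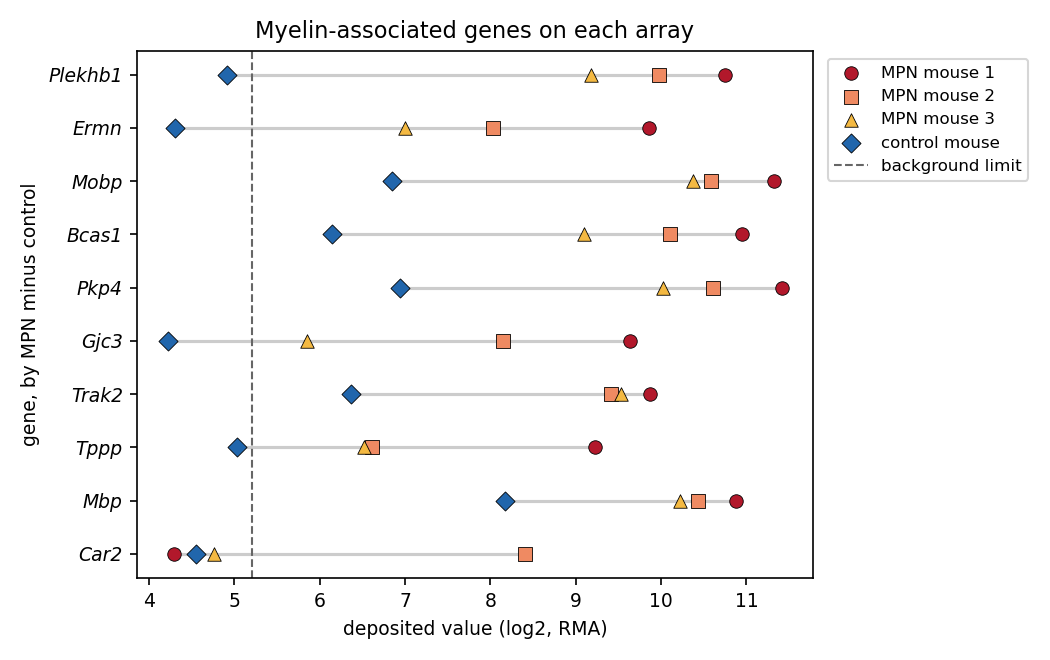
The deposited log2 value (horizontal axis) of each of the 10 genes (rows, ordered by MPN minus control) is shown by a point per array: 3 MPN mice and 1 control mouse, with the background limit of 5.21 dashed. In 9 genes each MPN point lies right of the control point, and Car2 has MPN mouse 2 alone at 8.41.

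Gjc3, the connexin 29 of myelinating glia (probe set 10534960), was at 9.64, 8.15 and 5.85 in the MPN mice, against 4.22 in the control mouse. MPN mouse 3 lay nearer to the control than to the other MPN mice, and the MPN arrays spread over 3.79 log2 units. The difference was 3.66 (SE 1.70). Pkp4, an armadillo protein of cell junctions (probe set 10472212), was at 11.42, 10.61 and 10.02 in the MPN mice, against 6.94 in the control mouse. The difference was 3.75 (SE 0.64) with no overlap between the groups.

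Trak2, an adaptor that joins mitochondria to kinesin motors (probe set 10354897), was at 9.86, 9.41 and 9.54 in the MPN mice, against 6.37 in the control mouse. It varied least of the 10 between MPN mice, with an SD of 0.24, and its difference was 3.24 (SE 0.25). Tppp, which promotes tubulin assembly and is abundant in oligodendrocytes (probe set 10406171), was at 9.23, 6.62 and 6.52 in the MPN mice, against 5.03 in the control mouse. Mouse 1 stood well above the other MPN mice, and the difference of 2.42 (SE 1.37) was 1.53 without it.

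Car2, carbonic anhydrase 2, which oligodendrocytes, red cell precursors and osteoclasts use (probe set 10490923), was at 4.29, 8.41 and 4.76 in the MPN mice, against 4.55 in the control mouse. The groups overlapped, since MPN mouse 1 was under the control and only MPN mouse 2 was above the background limit. The mean difference was 1.27 (SE 2.00), and it was -0.02 without MPN mouse 2. MPN mouse 3 lay 0.21 above the control, so a clearly higher value of Car2 was seen in MPN mouse 2 alone.

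In size, 9 of the 10 genes were at least 2-fold higher on each MPN array, a share that the choice of the genes fixes, and 1.13% of all genes were. Being above the control on each MPN array held for the same 9 and for 46.8% of all genes. At least 4-fold higher on each MPN array were 7 of the 10, and 0.321% of all genes. The median difference of the 10 genes was 3.70, and that of all genes 0.18. Control values were under the background limit for 5 of the 10 (Plekhb1, Ermn, Gjc3, Car2 and Tppp) and above it for the others.

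**Figure D2:**
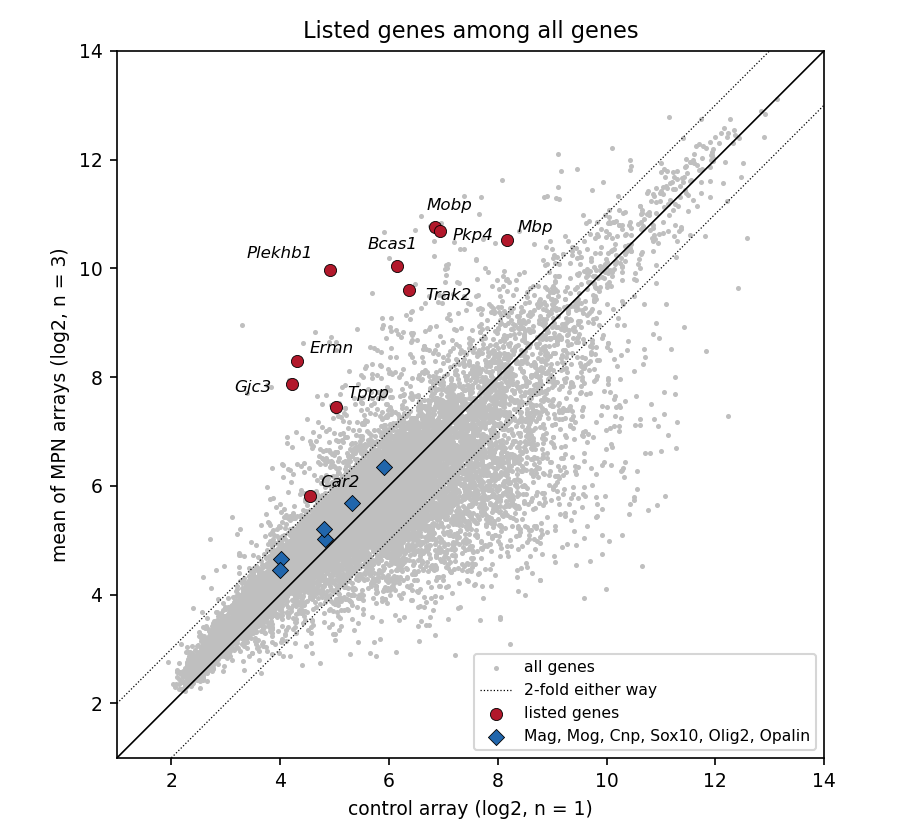
Each point is 1 of 19938 genes, with its value on the control array (horizontal, log2, n = 1) and its mean over the MPN arrays (vertical, log2, n = 3); dotted lines mark 2-fold. The 10 listed genes (red) lie above the diagonal. Blue diamonds mark Mag, Mog, Cnp, Sox10, Olig2 and Opalin, 6 picked oligodendrocyte genes, which lie between the dotted lines. Not all myelin genes do. Of the myelin membrane list, S1pr5, Anln, Ppp1r14a and Tmem88b lie above the upper dotted line. Trf and Apod lie below the lower one.

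Most of the 10 genes shared an ordering of the MPN mice. MPN mouse 1 was the highest array for 9 of the 10, with MPN mouse 2 highest for Car2. MPN mouse 3 was the lowest MPN array for 8 of the 10, the exceptions being Trak2, lowest in mouse 2, and Car2, lowest in mouse 1. The median of the 10 differences from the control was 4.47 for MPN mouse 1, 3.73 for mouse 2 and 2.82 for mouse 3. The median over all genes was 0.20, 0.21 and 0.08 for the same mice. The sequence mouse 1, mouse 2, mouse 3, control from high to low was followed by 8 of the 10 genes and by 14.7% of all genes. Among the 225 genes at least 2-fold higher on each MPN array, 40 followed it, a share of 17.8%, and these 40 hold the 8. Of the 225, 34.7% were highest in MPN mouse 1 and 41.8% in MPN mouse 3. The genes were chosen with their covariation between arrays in view, so these shares are a description.

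The spread between MPN mice differed widely among the genes. The SD over the 3 MPN arrays was 0.24 for Trak2, 0.33 for Mbp and 0.49 for Mobp, against 1.45 for Ermn, 1.54 for Tppp, 1.91 for Gjc3 and 2.25 for Car2. The genes with the widest spread were among those whose control value was under the background limit.

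Which other genes ran most like the 10 was measured by the root mean square distance, in log2 units over the 4 arrays, between each gene's centred values and the median centred profile of the 10. Of 11169 genes searched, all above background in either group, the 8 nearest were S100b, Kif5c, Gatm, Pglyrp1, Pea15a, Scd1, Snrnp25 and Lilr4b, at distances from 0.39 to 0.56. S100b, a calcium-binding protein of glia, was at 10.69, 9.64 and 9.31 in the MPN mice, against 7.04 in the control mouse. Kif5c, a kinesin heavy chain of the kind that Trak2 binds, was at 8.73, 7.53 and 6.75 in the MPN mice, against 4.84 in the control mouse. Both had MPN mouse 1 highest and every MPN array above the control. A search for profiles like that of the 10 favours this pattern, so it is a description. Gatm, an enzyme of creatine synthesis, was at 10.14, 8.45 and 8.70 in the MPN mice, against 5.87 in the control mouse. Scd1, a fatty acid desaturase, was at 11.12, 10.35 and 8.98 in the MPN mice, against 7.59 in the control mouse. Gatm and Scd1 were again highest in MPN mouse 1, which the search likewise favours. Pglyrp1, a granule protein of neutrophils, was at 11.25, 10.37 and 10.72 in the MPN mice, against 6.76 in the control mouse. Lilr4b, a leukocyte receptor, was at 11.12, 10.86 and 11.03 in the MPN mice, against 7.66 in the control mouse. Within the 10, Pkp4 lay nearest to the median profile at 0.08, then Bcas1 at 0.15 and Mobp at 0.26, while Car2 lay farthest at 2.08.

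**Figure D3:**
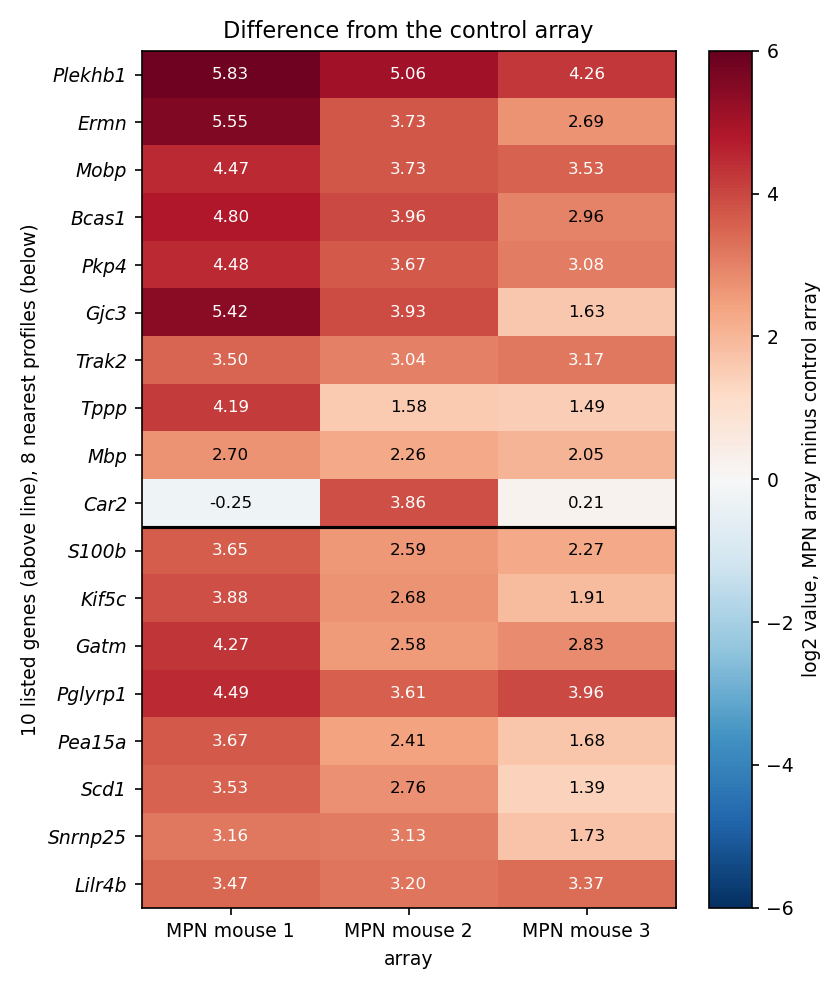
Cells give the log2 value of each MPN array minus the control array, for the 10 listed genes above the line and the 8 genes with the nearest profiles below it. Values run from -0.25 for Car2 in MPN mouse 1 to 5.83 for Plekhb1 in MPN mouse 1.

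The label was checked against the other genes of myelin. Mag, Mog and Opalin, all genes of mature oligodendrocytes, stayed near the background limit or under it in both groups. Mag, the myelin-associated glycoprotein, was at 5.19, 5.21 and 4.64 in the MPN mice, against 4.82 in the control mouse. Mog, a surface protein of the sheath, was at 5.19, 5.27 and 5.15 in the MPN mice, against 4.81 in the control mouse. Opalin, an oligodendrocyte membrane protein named after its values were seen, reached at most 4.51 in the MPN mice, against 4.01 in the control mouse. No value of these 3 genes exceeded 5.27, beside a background limit of 5.21. Of the 26 myelin membrane genes measured, these 3 among them, 19 were above that limit in the MPN mean or the control. Cnp, the phosphodiesterase of myelin, averaged 5.69 ± 0.22 (SD, n = 3) in the MPN mice, against 5.33 in the control mouse. The difference was 0.20 (SE 0.32) for Mag, 0.39 (SE 0.15) for Mog, 0.44 (SE 0.15) for Opalin and 0.36 (SE 0.24) for Cnp, beside 2.34 or more for 9 of the 10 chosen genes.

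By limma's test over all genes, 0 of 19938 genes passed the adjusted threshold of 0.05 (0% called, smallest adjusted p = 0.0871), while 2511 had an unadjusted p under 0.05. After cyclic loess normalisation, 4 genes higher and 93 lower passed it. Of 26 other myelin membrane genes measured, 0 passed in either direction (smallest adjusted p = 0.398 by limma), and 0 had an unadjusted p under 0.05. Their median difference was 0.43, beside 0.18 for all genes. None of the 26 was 2-fold higher on each MPN array, where the share over all genes was 1.13%, and 1 was 2-fold lower, where it was 5.78%. S1pr5, a lipid receptor of oligodendrocytes and natural killer cells, had the largest positive difference at 1.61 (SE 0.58). Anln had the next largest positive difference at 1.15 (SE 1.07). It was at 7.02, 4.70 and 6.32 in the MPN mice, against 4.87 in the control mouse. Trf, transferrin, which oligodendrocytes secrete, had the largest negative difference at -2.43 (SE 1.28), and Apod, a lipid carrier, was at -1.27 (SE 0.59).

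Factors that set the oligodendrocyte fate also gave 0 calls among 15 measured, or 1 with receptor gene medians made equal, and their median was 0.48. Sox10 averaged 6.35 ± 0.17 (SD, n = 3) in the MPN mice, against 5.91 in the control mouse, a difference of 0.44 (SE 0.21, adjusted p = 0.449 by limma). Olig2 averaged 4.65 ± 0.39 in the MPN mice, against 4.02 in the control mouse, all under the background limit. Qk, an RNA-binding protein that steers splicing of myelin transcripts, had the largest positive difference at 0.77 (SE 0.83). Tcf7l2, a Wnt effector used by oligodendrocytes and many other cells, was at 6.33, 6.01 and 6.19 in the MPN mice, against 9.04 in the control mouse. It and Zeb2 (-1.37, SE 0.32) were the 2 factors at least 2-fold lower on each MPN array, beside 5.78% of all genes. Progenitor genes of the lineage had a median of 0.01 over 11 measured (-0.25 with receptor gene medians made equal). Of these progenitor genes 3 (Ptprz1, Pdgfra and Bmp4) were at least 2-fold lower on each MPN array, beside 5.78% of all genes. Pdgfra, which marrow stroma also uses, had a difference of -3.18 (SE 0.73).

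Of 19 Schwann cell genes measured, 0 passed, and their median difference was 0.32. S100b, which also marks these cells, was the 1 gene of the list at least 2-fold higher on each MPN array, beside 1.13% of all genes. Its difference was 2.84 (SE 0.66, adjusted p = 0.270 by limma). Egr2, which drives peripheral myelination, was at -2.24 (SE 0.70), and Pmp22, a peripheral myelin protein, at -0.90 (SE 0.99). Enzymes of myelin lipids and sterols had a median of 0.29 over 21 measured, and 0 passed. Of them Scd1 was at least 2-fold higher on each MPN array (2.56, SE 0.97), beside 1.13% of all genes. Cers2 was the 1 enzyme at least 2-fold lower on each (-2.34, SE 0.70), beside 5.78% of all genes. Fdft1 had a difference of -0.81 (SE 0.26). Ugt8a, which makes the galactolipids of myelin, was at 7.87, 5.03 and 4.66 in the MPN mice, against 4.36 in the control mouse. Like Tppp, it was highest in MPN mouse 1, with the other MPN mice closer to the control.

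**Figure D4:**
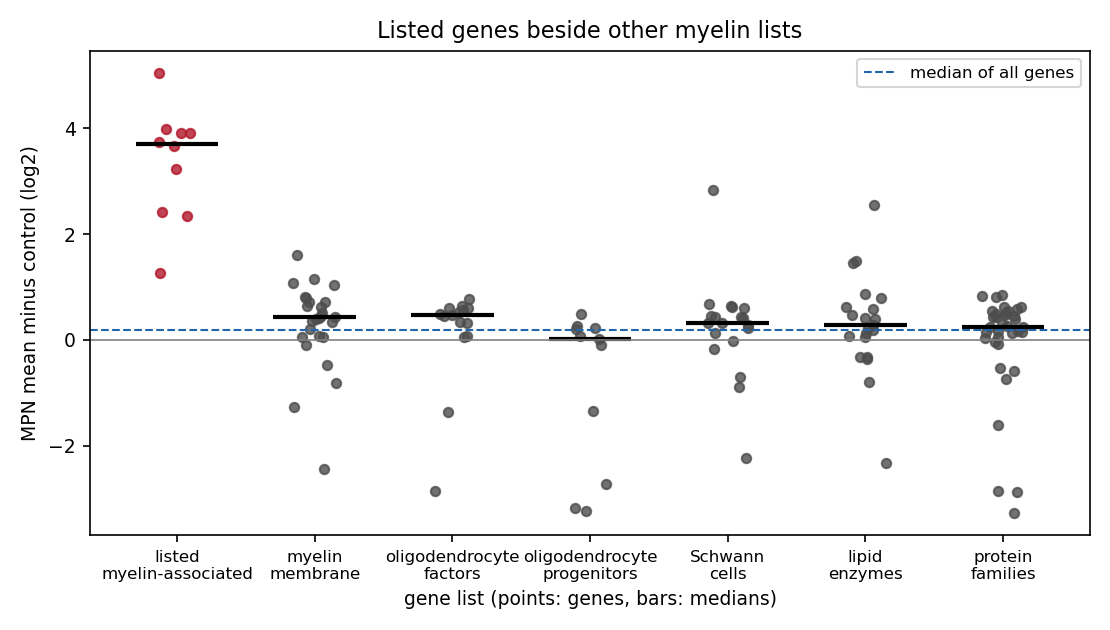
Points are genes, with the MPN mean minus control (log2) on the vertical axis, for the 10 listed genes (red) and 6 further lists; bars are medians and the dashed line is the median of all genes at 0.18. The listed genes have a median of 3.70, and the other lists lie between 0.01 and 0.48.

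Relatives of the 10 genes in their protein families had a median difference of 0.25, which was -0.0064 with receptor gene medians made equal. Of 35 relatives measured, 0 were at least 2-fold higher on each MPN array, where the share over all genes was 1.13%. At least 2-fold lower were 4, namely Ctnnd1, Car3, Gja1 and Gjc1, where that share was 5.78%. Gja1, the connexin 43 of stroma and astrocytes, was at 7.38, 7.30 and 7.20 in the MPN mice, against 10.15 in the control mouse, a difference of -2.86 (SE 0.17) opposite in sign to that of Gjc3. Car3, a carbonic anhydrase of fat and muscle, was at 5.18 ± 0.14 (SD, n = 3) in the MPN mice, against 8.05 in the control mouse. Ctnnd1, a catenin related to Pkp4, was at -3.27 (SE 0.50). Tppp3, a relative of Tppp found in ciliated cells and tendon, had a difference of 0.84 (SE 0.46), and Gja4, a connexin of arteries, of 0.82 (SE 1.04). By limma 0 of the 35 passed (smallest adjusted p = 0.0871), and 2 did after cyclic loess or with receptor gene medians made equal.

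Genes of other cells also had different values in the MPN mice. Neutrophil genes had a median difference of 2.99 over 21, and 16 of them were at least 2-fold higher on each MPN array, beside 1.13% of all genes. Their linear values summed to between 32504 and 47851 in the MPN mice, against 9409 in the control mouse. Pan-leukocyte genes had a median of 2.14 over 18, with 11 at least 2-fold higher on each MPN array. These summed to between 13114 and 19349 in the MPN mice, against 3040 in the control mouse. Among the MPN mice, both blood cell lists were highest in mouse 3, where 8 of the 10 myelin-associated genes had their lowest MPN value. Both lists were lowest among the MPN mice in mouse 2. Stromal genes had a median of -3.09 over 22, with 17 at least 2-fold lower on each MPN array, beside 5.78% of all genes. Lepr, a receptor of perivascular stroma, was at 6.61 ± 0.71 (SD, n = 3) in the MPN mice, against 10.80 in the control mouse, and Cxcl12 at 8.93 ± 0.65 in the MPN mice, against 11.42 in the control mouse. The part of these shifts in the values of the 10 genes was not tested.

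The share of all genes at least 2-fold higher on each MPN array, 1.13%, stands beside each such count in the next lists. Neuron genes had a median difference of 0.39 over 23, of which 9 were above background in either group. Among the neuron genes 1, Nefl, a neurofilament chain, was at least 2-fold higher on each MPN array (1.98, SE 0.49). Linear values of the neuron genes summed to between 830.2 and 1094 in the MPN mice, against 622.8 in the control mouse. Astrocyte genes had a median of 0.38 over 13, with 0 at least 2-fold higher. They summed to between 606.1 and 914.5 in the MPN mice, against 1553 in the control mouse. Gja1 carried that direction, since the sums without it were between 459.1 and 747.6 in the MPN mice, against 416.2 in the control mouse. For Car2, the erythroid list (16 measured, median 0.22, or -0.0345 with receptor gene medians made equal) and the osteoclast list (17 measured, median 0.34) had 0 genes at least 2-fold higher on each MPN array. The erythroid list summed to 1175 on MPN mouse 2, the array where Car2 was high, to 892.5 and 879.0 on MPN mice 1 and 3, and to 733.0 on the control array. Tfrc, the transferrin receptor, carried that peak, and without it the sums were 822.2 on MPN mouse 2, 845.2 and 630.4 on MPN mice 1 and 3, and 661.5 on the control array. The osteoclast list summed to between 817.5 and 1803 in the MPN mice, against 1036 in the control mouse, and its median difference was 0.22, 0.19 and 0.18 for MPN mice 1, 2 and 3. No gene is at 0 on this scale, and the part of these cells in the values was not tested. Megakaryocyte genes had a median of 0.66 over 12 and macrophage genes of 0.26 over 16, each with 0 genes at least 2-fold higher on each MPN array. The endothelial list, whose marker CD31 was sorted against, had a median of 0.48 over 17, and its gene Pecam1 was at 5.57 ± 0.41 (SD, n = 3) in the MPN mice, against 4.97 in the control mouse.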

How the data were processed

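Sorted cells of 3 MPN mice and 1 control mouse gave total RNA (Picopure), which was amplified (NuGEN Ovation) before hybridisation to Affymetrix mouse gene arrays, per the labels' protocols. The deposited values are log2 numbers made by the authors with RMA, per the submitters' processing notes, and ran from 1.55 to 13.63. The sources used here name no RMA version and no genome build. RMA compresses differences near background. Arrays have no read depth, and their number limits the precision.

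Of 35556 probe sets, 21789 have 1 gene symbol in the platform's gene table, 1621 have several and 12146 are unnamed here. By gene identifier, 21698 of those with 1 symbol matched RefSeq, with 0 symbols changed. The probe set with the highest mean over the 4 arrays stood for a gene, which left 19938 genes. The members and lists were chosen with earlier results of these data known. The MPN mean minus control was tested two-sided by limma 3.58.1 (R 4.3.3, lmFit then eBayes), at an adjusted threshold of 0.05 (Benjamini-Hochberg, all genes). Only the MPN arrays inform the spread (2 residual degrees of freedom), and the lone control is assumed to vary like them. SE is from this fit. The fit was tested on simulated data. For 134 genes the 3 MPN values were identical.

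Named genes were the 10 members, the 2 largest differences in each direction of each list, 10 fixed marker genes with a value and the 8 nearest profiles, without predicted genes, receptor genes and small RNA genes. Alternatives were cyclic loess, repeated quantile normalisation, equal array medians over all genes or over receptor genes, averaged probe sets, no dim genes, a variance prior that follows intensity, and each MPN mouse left out.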

Additional observations from a re-analysis of the deposited data

How the results depend on the processing

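No paired analysis was possible because the control has 1 array and its label carries no number. The count of listed genes at least 2-fold higher on each MPN array was 9 under all settings. The genes were chosen for this difference, and leaving out an MPN mouse cannot lower the count. Leaving out Car2, an alternative chosen after seeing the data, also gave 9, as it must, since Car2 is the gene that missed the cut. The steady count is therefore a description. The median difference of the 10 ran from 3.16 without MPN mouse 1 to 4.09 without MPN mouse 3. Of the 10 differences, that of Car2 was 2.03 without MPN mouse 1 but -0.0210 with MPN mouse 2 left out, and that of Trak2 was 2.98 with receptor gene medians made equal. Ranges over settings were 4.66 to 5.44 for Plekhb1, 3.21 to 4.64 for Ermn, 2.78 to 4.67 for Gjc3 and 1.53 to 2.89 for Tppp. Genes past limma's adjusted threshold numbered 4 higher and 93 lower after cyclic loess, and 7 higher and 146 lower with receptor gene medians made equal. The count of genes 2-fold higher on each MPN array was between 373 and 378 with any MPN mouse left out, where fewer arrays must agree, and that of 2-fold lower genes between 1312 and 1756, 1756 being without MPN mouse 3. After cyclic loess the median was 0.23 for myelin membrane genes, -0.16 for oligodendrocyte progenitor genes, 0.14 for Schwann cell genes, 0.11 for lipid enzymes and 0.0767 for protein family relatives. Equal receptor gene medians gave 0.17, -0.25, 0.0587, 0.0295 and -0.0064 for these lists, 0.22 for oligodendrocyte factors and -0.0345 for erythroid genes. With the same setting the median was 0.13 for neurons, 0.12 for astrocytes, 0.0868 for osteoclasts, 0.0007 for macrophages, 0.40 for megakaryocytes and 0.22 for endothelial genes. Of the progenitor genes, 1 passed the adjusted threshold after cyclic loess and 1 with receptor gene medians made equal. The sums of lists without their most variable gene were added after seeing the data. Progenitor genes were at -0.0335 with all-gene medians made equal and -0.72 without dim genes, and from -0.10 to 0.17 with an MPN mouse left out. Lipid enzymes were at 0.45 after repeated quantile normalisation, and at 0.46 without dim genes, where the relatives were at 0.10. The cause of these shifts was not tested. Precision is limited by 1 control array and, for 5 listed genes, by a control value under background.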

Other observations

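Car2 ran apart from the other 9 genes, and the genes nearest to its own profile over the 4 arrays were looked up after its values were seen. The nearest was Cpa3, a carboxypeptidase of mast cell granules, at 4.00, 7.81 and 4.51 in the MPN mice, against 4.18 in the control mouse. Prg2, the major basic protein of eosinophil granules, was among the 8 nearest, at 5.14, 9.20 and 4.995 in the MPN mice, against 4.70 in the control mouse. The others were H3c4, Ift27, S100a13, Prorsd1, Fggy and Tomm5, a histone gene and genes of varied function. In MPN mouse 2, 64 of 19938 genes were at least 4-fold above each of the other 3 arrays, and 8 besides Car2 by as much as Car2 or more.

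Aldoc, a glycolytic enzyme of astrocytes and other brain cells, was at 8.13, 6.20 and 5.32 in the MPN mice, against 4.72 in the control mouse. It had the largest positive difference of the astrocyte list and, as for 9 of the 10 myelin-associated genes, was highest in MPN mouse 1. Gja4 was at 7.44, 5.45 and 5.42 in the MPN mice, against 5.28 in the control mouse, so only MPN mouse 1 stood clearly above the control.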
